A study of Mus musculus with 9 samples.

Results

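The RNA of splenic BDL, the mature B cells with low surface IgD, was compared with that of follicular (FO) B cells with high IgD. The comparison used 6 of the 9 RNA-seq libraries of the series, 3 of BDL and 3 of FO B cells. The 3 marginal zone (MZ) B cell libraries entered the minimum level and the estimate of the spread, and served as a reference level. Its members were the 11597 of 24459 rows of the deposited expression table that averaged 0.5 FPKM or more across the 9 libraries. FPKM is a count of fragments scaled by the length of the transcript and by the mapped fragments of the library. Of the calls given below, 18 higher and 0 lower had a mean under 0.5 FPKM over the 6 BDL and FO libraries and passed the minimum through MZ B cells. Those named below are Mt1, Asb2, Bst1, Cacnb4, Camk2a, Cd80, Chn2, Gpr55 and Sv2a. The account covers functional classes other than the cell cycle and other than the surface markers that had been studied by flow cytometry.

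All libraries came from naive mice of 8 to 10 weeks, and each was made from B cells of 5 pooled spleens that had been enriched magnetically and then sorted. BDL and FO B cells shared the gate B220+, intermediate IgM and CD21, CD23+ and CD93-, and were parted by IgD alone. MZ B cells were IgM high, CD21 high and CD23-. The sample titles carry the dates 28 July, 29 July and 5 August, each shared by 1 library of each subset, numbered replicates 1 to 3 in that order. The labels give the strain as C57/BL6 and the paper as B10.PL, so that the strain stayed unresolved. No allele, transgene or treatment distinguished the groups.

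FO B cells recirculate through the follicles of spleen and lymph nodes and carry IgM and IgD as antigen receptors. IgM and IgD are spliced from the same heavy chain transcript, and mature naive B cells keep much IgD on their surface. MZ B cells stay at the border of the white pulp, respond early to blood-borne antigen, and differ from FO B cells in receptors, secreted proteins and adhesion molecules. Transcripts of the heavy chain locus itself were not analysed here.

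The columns summed to 446033 to 517208 FPKM. The depth estimated from the steps between low values was 0.906 to 1.22 relative to FO replicate 1. Over the libraries, 1 fragment on 1 kb was worth 0.0137 to 0.0185 FPKM. The summed level of 10 genes of B cell identity was 5211 to 5800 FPKM in BDL and 4754 to 5473 FPKM in FO B cells. Cd3e, Cd3d and Cd4, which define T cells, stayed under 1 FPKM in all 6 libraries. BDL replicate 3 was the deepest library and had the most rows at 0, namely 8599. It also departed from the other BDL libraries in single genes such as Myb, given below. What part this library had in a result was measured by leaving it out.

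Between BDL and FO B cells, 190 rows were higher in BDL, which is 1.64% of the rows tested, and 31 were lower, which is 0.267%. Calls required an adjusted p in limma below 0.05 together with a difference of 2-fold or more on the log2(FPKM + 0.1) scale. With the date in the titles as a replicate block the lower calls numbered 49 and the higher calls 198. Of the 190 higher genes, 28 belonged to the cell cycle and 9 to the flow cytometry markers, which left 153 for the description. The 221 calls showed the same direction in each of the 3 same-date pairs, and their FPKM did not overlap between groups. Over all rows tested, 24.4% did not overlap with BDL higher and 10.3% with BDL lower. The median difference over all rows tested was 0.05 on the log2 scale, and errors given below with a difference are standard errors of the fit.

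The FO mean was under 0.5 FPKM for 61 of the 190 higher genes and at least 1 FPKM for 92, and 36 of the 190 differed at least 4-fold. As 0.1 FPKM was added before the logarithm, the fold change of genes at low levels is understated. By their known products, and in classes drawn up after the values were seen, the 153 higher genes comprised 20 of intracellular signalling, 20 metabolic enzymes and lipid carriers, 18 receptors and other surface proteins, 17 secreted and luminal proteins, 16 transcription factors and chromatin regulators, and 14 of the cytoskeleton, membrane repair and vesicle traffic. Of the 31 lower genes, 9 were of signalling, 5 of receptors and surface proteins and 4 metabolic. In bulk samples, a larger share of cells of one kind and more RNA per cell cannot be told apart.

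Transcription factors of early lymphoid cells were among the largest differences. Myb, a factor of haematopoietic progenitors (chromosome 10, 20844736 to 20880790 of NCBIM37), was 16.9, 20.7 and 6.99 FPKM in BDL and 1.16, 1.31 and 1.23 FPKM in FO B cells (log2 difference 3.35 ± 0.47, adjusted p = 0.00549). Lef1, the DNA-binding partner of beta-catenin (chromosome 3, 130813389 to 130927274), was 6.04, 6.76 and 6.85 FPKM in BDL and 0.814, 1.26 and 1.12 FPKM in FO B cells (log2 difference 2.53 ± 0.29, adjusted p = 0.00247). Sox4, which early B cell development requires, was 4.09, 4.46 and 7.11 FPKM in BDL and 0.923, 0.893 and 1.23 FPKM in FO B cells (log2 difference 2.22 ± 0.22, adjusted p = 0.00127). All 3 genes were higher in each BDL library than in any FO library. BDL replicate 3 had the lowest Myb and the highest Sox4 among BDL libraries. Gfi1, a zinc finger repressor, was 8.21, 14.9 and 4.02 FPKM in BDL and 1.11, 2.06 and 1.36 FPKM in FO B cells (log2 difference 2.36 ± 0.53, adjusted p = 0.0344). Gfi1 had the largest standard error of these 4 factors, and its adjusted p was no longer under the threshold without BDL replicate 1 or 2, any FO replicate or MZ replicate 1 (adjusted p 0.0658 to 0.13). In the plot of these factors, Myb, Lef1, Hivep3, Gfi1, Sox4 and Zbtb32 stand 4-fold or more above FO B cells, and Lef1 and Sox4 have their lowest levels in MZ B cells, with means of 0.218 and 0.334 FPKM.

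**Figure D1:**
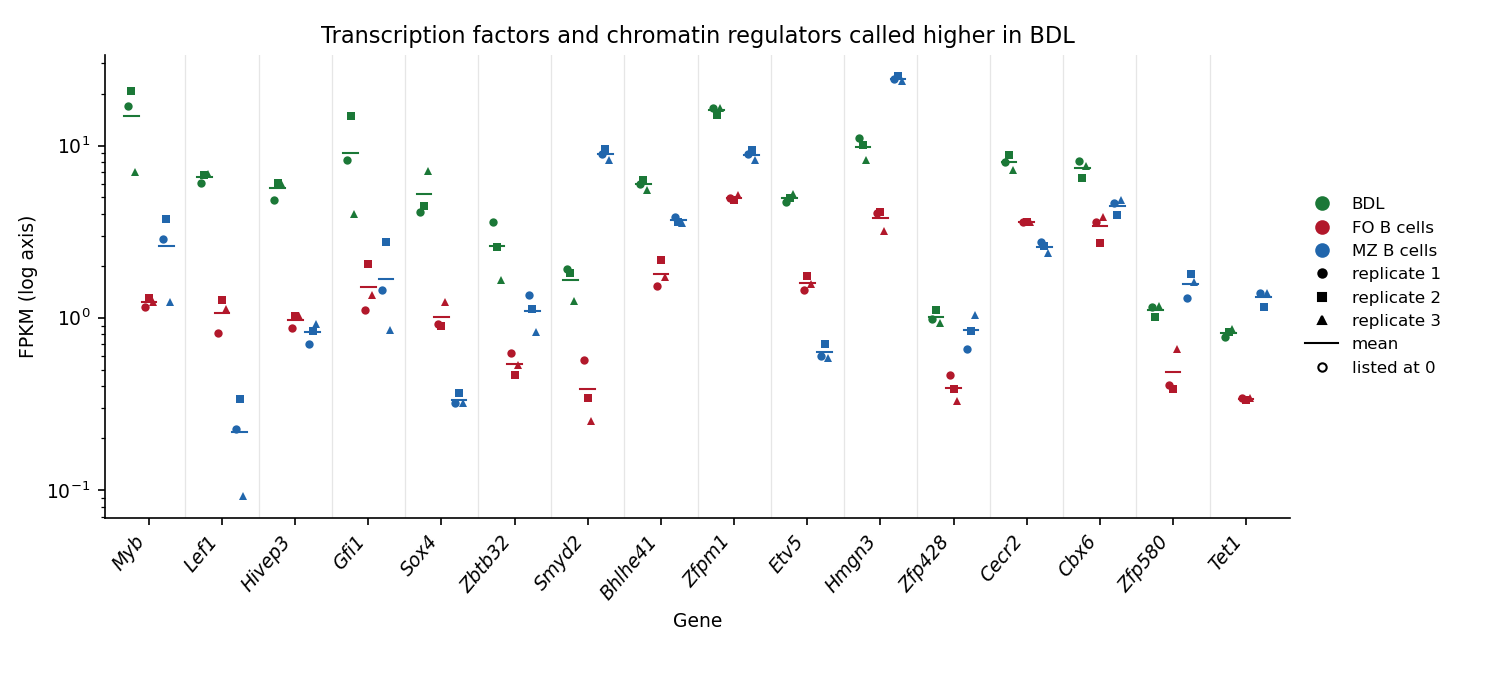
FPKM on a log axis of the 16 transcription factors and chromatin regulators called higher in BDL, with 1 point per library, shapes for the replicates and bars for the means of BDL, FO and MZ B cells. Myb reaches 20.7 FPKM in BDL replicate 2 and 6.99 FPKM in replicate 3, whereas its FO libraries lie at 1.16 to 1.31 FPKM.

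The bases before the start sites of the 3 early lymphoid factors and of Rgs13 are shown. Rgs13 had the largest difference among protein-coding genes, and the 3 factors led the early lymphoid group. The sequences are 250 bases upstream of the RefSeq start in GRCm38.p6, in the direction of transcription, with CG dinucleotides (CpG) in capitals. The expression files use the older build mm9.
Rgs13 (chr1:144177373-144177622, minus strand): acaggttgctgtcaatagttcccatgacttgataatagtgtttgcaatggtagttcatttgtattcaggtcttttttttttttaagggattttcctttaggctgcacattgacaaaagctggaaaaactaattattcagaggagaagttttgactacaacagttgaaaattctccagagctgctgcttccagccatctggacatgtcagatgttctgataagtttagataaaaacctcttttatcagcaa
Myb (chr10:21160985-21161234, minus strand): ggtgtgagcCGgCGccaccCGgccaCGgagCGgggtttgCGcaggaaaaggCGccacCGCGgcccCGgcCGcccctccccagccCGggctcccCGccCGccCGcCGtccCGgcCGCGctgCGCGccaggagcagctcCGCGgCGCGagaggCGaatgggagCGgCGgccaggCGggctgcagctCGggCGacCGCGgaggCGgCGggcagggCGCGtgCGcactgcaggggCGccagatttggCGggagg
Lef1 (chr3:131110047-131110296, plus strand): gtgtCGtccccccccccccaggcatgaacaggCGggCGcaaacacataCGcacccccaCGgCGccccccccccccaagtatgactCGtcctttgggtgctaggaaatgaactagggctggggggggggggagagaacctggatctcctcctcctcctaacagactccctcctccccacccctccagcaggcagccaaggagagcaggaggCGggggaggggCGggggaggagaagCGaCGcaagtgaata
Sox4 (chr13:28953700-28953949, minus strand): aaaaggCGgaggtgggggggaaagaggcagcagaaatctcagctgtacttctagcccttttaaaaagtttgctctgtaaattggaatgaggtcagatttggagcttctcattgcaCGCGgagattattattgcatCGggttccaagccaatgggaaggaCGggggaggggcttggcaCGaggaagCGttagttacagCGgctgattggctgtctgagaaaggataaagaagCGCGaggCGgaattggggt
The Rgs13 window held 0 CpG, the Lef1 and Sox4 windows 11 each and the Myb window 40. Over the 27025 promoter windows of that table the median was 6 and 8.3% held none, whereas over the tested rows with a window, 77.5% of them, the median was 16 and 1.1% held none. The Lef1/Tcf motif CTTTGA, searched on both strands and found in 14.0% of those windows, was in 0 of the 4. The Myb motif AACNG, found in 74.1%, was in the Rgs13 and Lef1 windows. Promoter windows were at hand for 76.8% of the higher genes, which is under the 80% needed for a comparison of motif shares between gene sets, and none was made.

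Further factors rose. Hivep3, a large zinc finger protein that binds kappa B-like sites, was 4.86, 6.06 and 6.08 FPKM in BDL and 0.87, 1.02 and 1.03 FPKM in FO B cells (log2 difference 2.42 ± 0.14, adjusted p = 1.30e-04). Zfpm1, a cofactor of GATA factors, was 16.5, 15 and 16.5 FPKM in BDL and 4.97, 4.82 and 5.18 FPKM in FO B cells (log2 difference 1.66 ± 0.08, adjusted p = 7.82e-05), the smallest adjusted p of the class. Etv5, an ETS factor, was 4.69, 4.93 and 5.25 FPKM in BDL and 1.45, 1.75 and 1.57 FPKM in FO B cells (log2 difference 1.59 ± 0.12, adjusted p = 3.26e-04), with an MZ mean of 0.632 FPKM. Zbtb32 and Bhlhe41, repressors known from B1 and memory B cells, differed by 2.02 and 1.68 on the log2 scale (adjusted p = 0.0056 and 3.26e-04). Zbtb32 spread from 1.65 FPKM in BDL replicate 3 to 3.59 FPKM in replicate 1. Among chromatin regulators, the histone methyltransferase Smyd2 (1.89), the nucleosome-binding Hmgn3 (1.35), the bromodomain protein Cecr2 (1.13), the Polycomb protein Cbx6 (1.11) and Tet1 (1.07), which oxidises methylated cytosine, were higher.

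The lymphoid transcription factors as a list, 116 genes of which 88 were tested, had 6 higher and 0 lower, or 6.82% against 1.64% of all rows, and a median difference of 0.05. The 6 were Myb, Lef1, Gfi1, Sox4, Zbtb32 and Bhlhe41. Of the 22 early B cell genes, 11 passed the minimum of 0.5 FPKM and 6 of the 11 were called higher (54.5%, against 1.64% of all rows). These were Myb, Lef1, Sox4, the surface enzyme Bst1, the kinase anchor Akap12 and Cecr2. Both lists were written with earlier results of these data known, and Myb, Lef1 and Sox4 were on both. Bst1 passed the minimum only through MZ B cells, with a mean of 4.33 FPKM there. As the minimum drew on the BDL libraries too, genes low in all subsets are not in the 11. Rag1 and Rag2, the recombinase of V(D)J joining, reached at most 0.0201 FPKM in the 6 libraries. Igll1, a surrogate light chain, was at 0. Ebf1 and Pax5, factors of B cell identity, had differences of -0.05 and 0.10 (adjusted p = 0.871 and 0.629).

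A summed level of 10 markers of transitional B cells, which include Rag1, Rag2 and Igll1, was 478 to 710 FPKM in BDL and 307 to 369 FPKM in FO B cells, and 3 of the 5 tested were higher, against 1.64% of all rows. These were Myb, Sox4 and Cd93, although CD93+ cells had been gated out of all subsets. Myb and Sox4 were also counted among the early B cell genes. Cd93, a surface marker of immature B cells, was 10.2, 15.9 and 11.5 FPKM in BDL and 3.1, 5.29 and 3.32 FPKM in FO B cells. The sum was mostly Cd24a, which was 333, 332 and 534 FPKM in BDL and 209, 242 and 251 FPKM in FO B cells and did not pass the test (adjusted p = 0.0674). Their part in the differences of other genes was not tested.

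Among regulators of signalling, Rgs13 showed the largest difference of any gene with a protein product. This GTPase-activating protein of heterotrimeric G proteins, known to shorten chemokine receptor signals in germinal centre B cells (chromosome 1, 145985797 to 146024502), was 3.42, 4.12 and 6.37 FPKM in BDL and 0.172, 0.268 and 0.222 FPKM in FO B cells (log2 difference 3.85 ± 0.33, adjusted p = 6.44e-04). Its MZ mean was 0.15 FPKM. Rgs10, of the same family, was 5.26, 5.25 and 6.32 FPKM in BDL and 1.56, 1.55 and 1.47 FPKM in FO B cells (log2 difference 1.81 ± 0.12, adjusted p = 1.53e-04). It was far higher in MZ B cells, with a mean of 56.7 FPKM. Both were higher in every BDL library, and each kept an adjusted p under 0.05 in all 20 alternatives. Of 55 tested genes of heterotrimeric G proteins and RGS proteins these were the only 2 called (3.64%, against 1.64% of all rows called higher). Rgs2 and Rgs1 had differences of 0.93 and 0.96 (adjusted p = 0.00542 and 0.0484), under the 2-fold minimum. Rgs13 was the only one called of 6 tested germinal centre markers, whose list summed to 129 to 136 FPKM in BDL and 144 to 162 FPKM in FO B cells. Bcl6, the defining factor of germinal centres, had a difference of -0.30 (adjusted p = 0.172).

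Several proteins that bind calmodulin or depend on it were higher. Nrgn (neurogranin), which holds calmodulin through an IQ motif, was 9.42, 8.38 and 9.41 FPKM in BDL and 1.7, 1.44 and 1.2 FPKM in FO B cells (log2 difference 2.58 ± 0.14, adjusted p = 9.37e-05). Pcp4, which binds calmodulin through the same kind of motif, was 10.2, 14.2 and 17.3 FPKM in BDL and 2.65, 4.3 and 4.53 FPKM in FO B cells (log2 difference 1.84 ± 0.28, adjusted p = 0.00759). The groups did not overlap for either gene, and the MZ means were 0.932 and 2.2 FPKM. The calmodulin-dependent kinases Dapk2 and Camk2a differed by 1.75 and 1.10, and the protein kinase C substrate Marcks by 1.26, with adjusted p = 0.00611, 0.0125 and 0.0232. These were 5 of 28 tested members (17.9%, against 1.64% of all rows) of a list written after the values were seen, whose median difference was 0.06. Camk2a passed the minimum only through MZ B cells. Calm3, a calmodulin gene, and the calcineurin subunit Ppp3r1 had differences of 0.20 and 0.19 (adjusted p = 0.476 and 0.663). Marcks exceeded the threshold when any BDL or FO replicate was left out (adjusted p 0.0511 to 0.0957).

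Of 118 tested regulators of small GTPases, 4 were higher (3.39%, against 1.64% of all rows) and 1 was lower (0.847%, against 0.267%). The lower one was Dock6, an exchange factor, with 1.02, 1.05 and 0.522 FPKM in BDL and 1.97, 1.84 and 1.94 FPKM in FO B cells (log2 difference -1.12 ± 0.24, adjusted p = 0.0302). Its call was lost without BDL replicate 1, any FO replicate or MZ replicate 1 (adjusted p 0.0549 to 0.111). Rgl1, an exchange factor for Ral, was 6.91, 7.69 and 8.65 FPKM in BDL and 2.93, 2.99 and 2.74 FPKM in FO B cells (log2 difference 1.39 ± 0.15, adjusted p = 0.00189). Its MZ mean was 0.224 FPKM. The cAMP-activated Rap exchange factor Rapgef3 (Epac1) differed by 1.23 (adjusted p = 0.019) and the Rac GTPase-activating proteins Arhgap24 and Chn2 by 1.20 and 1.19 (adjusted p = 0.00189 and 0.0186). Rapgef3 was not under the threshold without BDL replicate 1 or 2 or FO replicate 2 or 3 (adjusted p 0.0569 to 0.0723). Chn2 lost its call after quantile normalization (adjusted p = 0.173). Spred1 and Spry2, inhibitors of Ras signalling to ERK, rose by 1.47 and 1.26 (adjusted p = 0.00448 and 0.0459). Spry2 lost its call without any one of the BDL or FO replicates or MZ replicate 1 (adjusted p 0.0746 to 0.158). Akap12, an anchor of protein kinases A and C, was 10.9, 11.6 and 12.6 FPKM in BDL and 4.5, 4.81 and 5 FPKM in FO B cells (log2 difference 1.27 ± 0.08, adjusted p = 1.87e-04). Nedd4, a ubiquitin ligase of membrane proteins, was 24.8, 25.8 and 26 FPKM in BDL and 7.18, 7.39 and 8.66 FPKM in FO B cells (log2 difference 1.71 ± 0.11, adjusted p = 1.36e-04), with an MZ mean of 59.7 FPKM.

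In the antigen receptor pathway the kinase Lck was the only gene called among 50 tested (2%, against 1.64% of all rows called higher). Lck, the Src-family kinase best known from T cells, was 21.9, 21.3 and 17.7 FPKM in BDL and 9.67, 9 and 8.52 FPKM in FO B cells (log2 difference 1.15 ± 0.17, adjusted p = 0.0073). Every BDL library was above every FO library, while Cd3e did not exceed 0.342 FPKM in any of the 6. The phosphatase Ptpn22, with 18.3 ± 2.31 FPKM in BDL and 9.24 ± 1.14 FPKM in FO B cells (mean ± SD, n = 3), had a difference of 0.98. It fell just short of 2-fold (limma adjusted p = 0.00308 over the 9 libraries). In all, 6 of the 50 genes passed the adjusted p upward and 2 downward, beside 6.04% and 1.68% of all rows. The median of the list was 0.07. Rasgrp3, an exchange factor downstream of the receptor, had a difference of -0.51 (adjusted p = 0.0139).

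Genes of receptors and other surface proteins that rose numbered 18, and in 12 of them the MZ mean was above the BDL mean. Plxnd1, a receptor for semaphorins, was 4.42, 4.62 and 4.75 FPKM in BDL and 0.769, 0.693 and 0.859 FPKM in FO B cells (log2 difference 2.43 ± 0.12, adjusted p = 8.97e-05), with an MZ mean of 45.1 FPKM. Fcrl5, an Fc receptor-like protein of innate-like B cells, was 21.2, 16.3 and 17.4 FPKM in BDL and 6.9, 5.16 and 5.29 FPKM in FO B cells (log2 difference 1.65 ± 0.16, adjusted p = 0.00113), with an MZ mean of 96.7 FPKM. Folr4 (Juno), of the folate receptor family, was 2.42, 2.06 and 1.94 FPKM in BDL and 0.248, 0.24 and 0.188 FPKM in FO B cells (log2 difference 2.78 ± 0.18, adjusted p = 1.44e-04). Sdc1 (syndecan-1, CD138), a heparan sulphate proteoglycan, was 6.86, 8.96 and 9.58 FPKM in BDL and 1.61, 1.67 and 1.22 FPKM in FO B cells (log2 difference 2.42 ± 0.25, adjusted p = 0.00147). Unlike Plxnd1 and Fcrl5, Folr4 and Sdc1 had MZ means under the BDL libraries, at 0.453 and 0.177 FPKM. Bst1 (CD157), an ectoenzyme of early B cells, was 0.592, 0.784 and 0.72 FPKM in BDL and 0.0744, 0.0928 and 0.0673 FPKM in FO B cells (log2 difference 2.16 ± 0.19, adjusted p = 6.67e-04).

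Ackr2 and Ackr3, which take up chemokines without G protein signalling, both rose. Ackr2 was 5.05, 4.2 and 2.79 FPKM in BDL and 1.13, 1.19 and 0.834 FPKM in FO B cells (log2 difference 1.81 ± 0.21, adjusted p = 0.00256). Ackr3 was 1.45, 2.78 and 1.7 FPKM in BDL and 0.294, 0.846 and 0.558 FPKM in FO B cells (log2 difference 1.68 ± 0.36, adjusted p = 0.0288). The MZ means were far above both groups, at 39.7 and 64 FPKM. Ccr1, a receptor of inflammatory chemokines, was 2.13, 2.04 and 2.48 FPKM in BDL and 0.791, 1 and 1 FPKM in FO B cells (log2 difference 1.17 ± 0.12, adjusted p = 0.00128). Ccr6, the receptor of Ccl20 (chromosome 17, 8429077 to 8449992), went the other way and was 36.2, 34.9 and 38.2 FPKM in BDL and 87.6, 81.1 and 88.6 FPKM in FO B cells (log2 difference -1.23 ± 0.10, adjusted p = 5.51e-04). The BDL and FO libraries lay far apart for Ccr6, and the MZ mean of 40.9 FPKM was near the BDL level. Of 59 tested G protein-coupled receptors on the list, 5 rose, namely Ackr2, Ackr3, Ccr1, the lysophospholipid receptor Gpr55 and the flow cytometry marker Emr1, and 1 fell. These were 8.47% and 1.69%, against 1.64% and 0.267% of all rows. Gpr183, the oxysterol receptor that guides B cells in the follicle, had a difference of -0.93 (adjusted p = 0.0056), short of 2-fold. Ackr3 kept no adjusted p under 0.05 without any BDL replicate, FO replicate 1 or 3 or MZ replicate 2 (0.0521 to 0.0981), nor Gpr55 without FO replicate 1 or 3 (0.0501 to 0.0519). The list did not hold the olfactory receptor Olfr98 or the orexin receptor Hcrtr2, which are also receptors of this kind. Olfr98 was lower, with a difference of -1.38 ± 0.27 (adjusted p = 0.0217), and lost its call without BDL replicate 2 or FO replicate 1 or 3 (0.0609 to 0.0883). Hcrtr2 differed by 1.61 (adjusted p = 0.00821). It fell outside the naming rule and was chosen after its values were seen.

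Cytokine receptors had 2 higher and 1 lower of 59 tested (3.39% and 1.69%, against 1.64% and 0.267% of all rows). Csf2rb, the common beta chain of the receptors for Il3, Il5 and Csf2, was 5.59, 5.47 and 4 FPKM in BDL and 2, 1.93 and 2.03 FPKM in FO B cells (log2 difference 1.28 ± 0.12, adjusted p = 0.00109). Tnfrsf21 (death receptor 6) differed by 1.14 (adjusted p = 0.00542). Il9r fell, with 7.44, 6.38 and 3.58 FPKM in BDL and 12.5, 12.4 and 12.8 FPKM in FO B cells (log2 difference -1.17 ± 0.23, adjusted p = 0.022). Its MZ mean was 99 FPKM, above both. The call was lost when any FO replicate was left out (adjusted p 0.0701 to 0.087). The scavenger receptor Cd36 and the Cd47 receptor Sirpa differed by 1.03 and 1.02 (adjusted p = 0.0113 and 0.0026). Cd36 exceeded the threshold without FO replicate 1 or 3 (adjusted p 0.0557 to 0.0579). Sirpa, as well as Mpeg1 and Emr1 named below, is also found on myeloid cells. The list of 20 myeloid markers summed to 25.8 to 39 FPKM in BDL and 17 to 27.8 FPKM in FO B cells. Mpeg1 and Emr1 were higher among 11 tested, against 1.64% of all rows, and made most of the gap between the sums. Lyz2, Cd68, Fcgr3 and C1qa had differences of -0.05, -0.26, -0.19 and -0.15 (adjusted p = 0.976, 0.466, 0.139 and 0.763). The other tested members not called had differences of 0.07 (S100a9) to 0.89 (Itgam). The part of myeloid cells in these differences was not tested.

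Secreted and luminal proteins included the genes with the steepest rise after Rgs13 and Myb. Endou, a uridylate-specific endoribonuclease (chromosome 15, 97541450 to 97561836), was 14.3, 11.9 and 11.3 FPKM in BDL and 1.17, 1.18 and 1.2 FPKM in FO B cells (log2 difference 3.29 ± 0.17, adjusted p = 8.97e-05), with FO libraries that were nearly alike. Wnt10a, a Wnt ligand (chromosome 1, 74838090 to 74850753), was 2.69, 1.79 and 2.53 FPKM in BDL and 0.244, 0.188 and 0.154 FPKM in FO B cells (log2 difference 3.04 ± 0.27, adjusted p = 7.55e-04). Lipc, hepatic lipase, was 1.8, 1.42 and 1.71 FPKM in BDL and 0.0924, 0.173 and 0.0837 FPKM in FO B cells (log2 difference 3.03 ± 0.19, adjusted p = 1.44e-04). Endou and Wnt10a had MZ means of 1.31 and 0.11 FPKM, near or under the FO level, whereas Lipc had one of 9.5 FPKM, above all BDL libraries. The row 1100001G20Rik was 5.46, 5.66 and 6.17 FPKM in BDL and 0.339, 1.34 and 0.477 FPKM in FO B cells (log2 difference 3.04 ± 0.69, adjusted p = 0.0348). It was not under the threshold without any BDL replicate, FO replicate 1 or 3 or MZ replicate 2 (adjusted p 0.0509 to 0.131), nor with 0.01 added (adjusted p = 0.185). In the plot of the 17 secreted and luminal genes, the MZ points lie above the BDL points for 9 genes by their means, and under FO for 4.

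**Figure D2:**
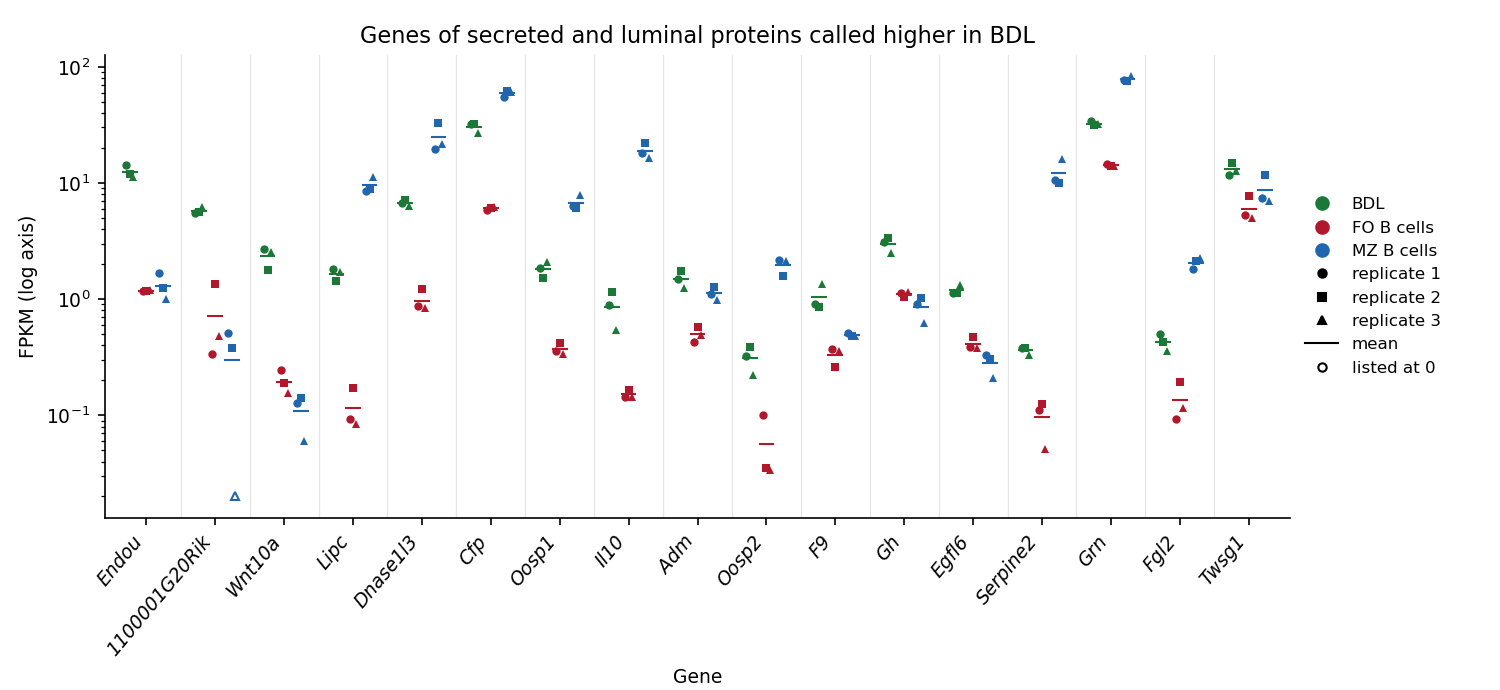
FPKM on a log axis of the 17 genes of secreted and luminal proteins called higher in BDL, with 1 point per library, shapes for replicates, bars for means, and open symbols at the bottom for values listed at 0. Endou lies at 11.3 to 14.3 FPKM in BDL and 1.17 to 1.20 FPKM in FO B cells, and Lipc, Dnase1l3, Cfp and Il10 have their highest levels in MZ B cells.

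Cfp (properdin), which stabilises the alternative complement convertase, was 32.3, 31.9 and 26.7 FPKM in BDL and 5.9, 6.03 and 6.21 FPKM in FO B cells (log2 difference 2.30 ± 0.09, adjusted p = 3.50e-05), the smallest adjusted p of a protein-coding gene. Dnase1l3, a secreted nuclease that digests DNA in cell debris, was 6.72, 7.14 and 6.35 FPKM in BDL and 0.875, 1.21 and 0.833 FPKM in FO B cells (log2 difference 2.69 ± 0.20, adjusted p = 3.76e-04). Il10, the regulatory cytokine, was 0.885, 1.15 and 0.543 FPKM in BDL and 0.144, 0.165 and 0.145 FPKM in FO B cells (log2 difference 1.88 ± 0.23, adjusted p = 0.00322), a low level beside the MZ mean of 18.8 FPKM. Grn (progranulin) was 34.1, 31.3 and 32 FPKM in BDL and 14.5, 14 and 14 FPKM in FO B cells (log2 difference 1.19 ± 0.07, adjusted p = 1.36e-04). Of 37 tested cytokines, chemokines and growth factors, Wnt10a, Il10 and Grn were higher (8.11%, against 1.64% of all rows), and 0 were lower. The median was -0.13, but -0.02 without BDL replicate 1, -0.01 without BDL replicate 3, -0.07 without FO replicate 3 and 0.07 without FO replicate 2, so that no direction is given. Lta, Tnf and Mif had differences of -0.68, -0.81 and 0.75 (adjusted p = 0.0273, 0.11 and 0.00389). The Wnt and Notch list of 48 tested genes held Wnt10a and Lef1 as its only calls (4.17% higher, against 1.64% of all rows).

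Of the 20 metabolic genes that rose, several belonged to serine, glutathione or nucleotide metabolism, for which lists were written after the values were seen. Psat1, the aminotransferase of serine synthesis (chromosome 19, 15979168 to 16021827), was 12, 11.1 and 14.1 FPKM in BDL and 4.65, 4.99 and 5.22 FPKM in FO B cells (log2 difference 1.30 ± 0.10, adjusted p = 3.92e-04). Shmt1, which converts serine to glycine in the cytosol, was 6.06, 5.7 and 5.26 FPKM in BDL and 2.56, 2.29 and 2.25 FPKM in FO B cells (log2 difference 1.23 ± 0.09, adjusted p = 3.26e-04). Gcsh, of the glycine cleavage system, differed by 1.02, the asparagine synthetase Asns by 1.29 and the amino acid transporter Slc43a1 by 1.28 (adjusted p = 0.0135, 0.00982 and 0.00151). Phgdh, the first enzyme of serine synthesis, was 40.7, 35.9 and 38.6 FPKM in BDL and 24, 21.8 and 22 FPKM in FO B cells (log2 difference 0.76 ± 0.08, adjusted p = 0.00138). The mitochondrial Shmt2 and Mthfd2 had differences of 0.63 and 0.73 (adjusted p = 0.00318 and 0.0424). These 3 passed the adjusted p but not the 2-fold minimum. In this list, written after the values were seen, 5 of 23 tested genes were called higher, against 1.64% of all rows, and 1 lower. Of the 23, 11 passed the adjusted p upward, beside 6.04% of all rows, and the median was 0.33. The one lower was Tha1, threonine aldolase, with 0.823, 0.81 and 0.366 FPKM in BDL and 1.54, 1.79 and 2 FPKM in FO B cells (log2 difference -1.35 ± 0.26, adjusted p = 0.0208). Gcsh was not under the threshold without FO replicate 1 or 3 (adjusted p 0.0588 to 0.0617), nor Tha1 without any FO replicate (0.06 to 0.087).

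Enzymes of glutathione and xenobiotic metabolism formed another group. Mgst1, a microsomal glutathione transferase, was 4.87, 4.62 and 4.51 FPKM in BDL and 1.18, 1.05 and 0.95 FPKM in FO B cells (log2 difference 2.04 ± 0.11, adjusted p = 9.37e-05). Ephx1, the microsomal epoxide hydrolase, was 98, 103 and 126 FPKM in BDL and 48.6, 52.6 and 47.9 FPKM in FO B cells (log2 difference 1.12 ± 0.11, adjusted p = 0.00131), the highest level among the metabolic genes called. Gsto1, an omega-class glutathione transferase, was 7.33, 6.29 and 8.08 FPKM in BDL and 2.77, 3.1 and 2.67 FPKM in FO B cells (log2 difference 1.31 ± 0.10, adjusted p = 4.35e-04). The FO values of these 3 genes stayed within a narrow range under all BDL values. Mgst2, with 27.4, 28.2 and 14 FPKM in BDL and 8.32, 8.09 and 8.54 FPKM in FO B cells, had BDL replicate 3 apart from replicates 1 and 2 (log2 difference 1.40 ± 0.27, adjusted p = 0.0194). Its call was lost without BDL replicate 1 or 2 or any FO replicate (adjusted p 0.06 to 0.0768). With the metallothionein Mt1, which was under 1 FPKM throughout BDL and FO B cells and lost its call without any one library but BDL replicate 3 (adjusted p 0.0515 to 0.129), 5 of 37 tested members of this list were higher, against 1.64% of all rows, and 0 lower. Its median was 0.24, and the list was likewise written after the values were seen.

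**Figure D3:**
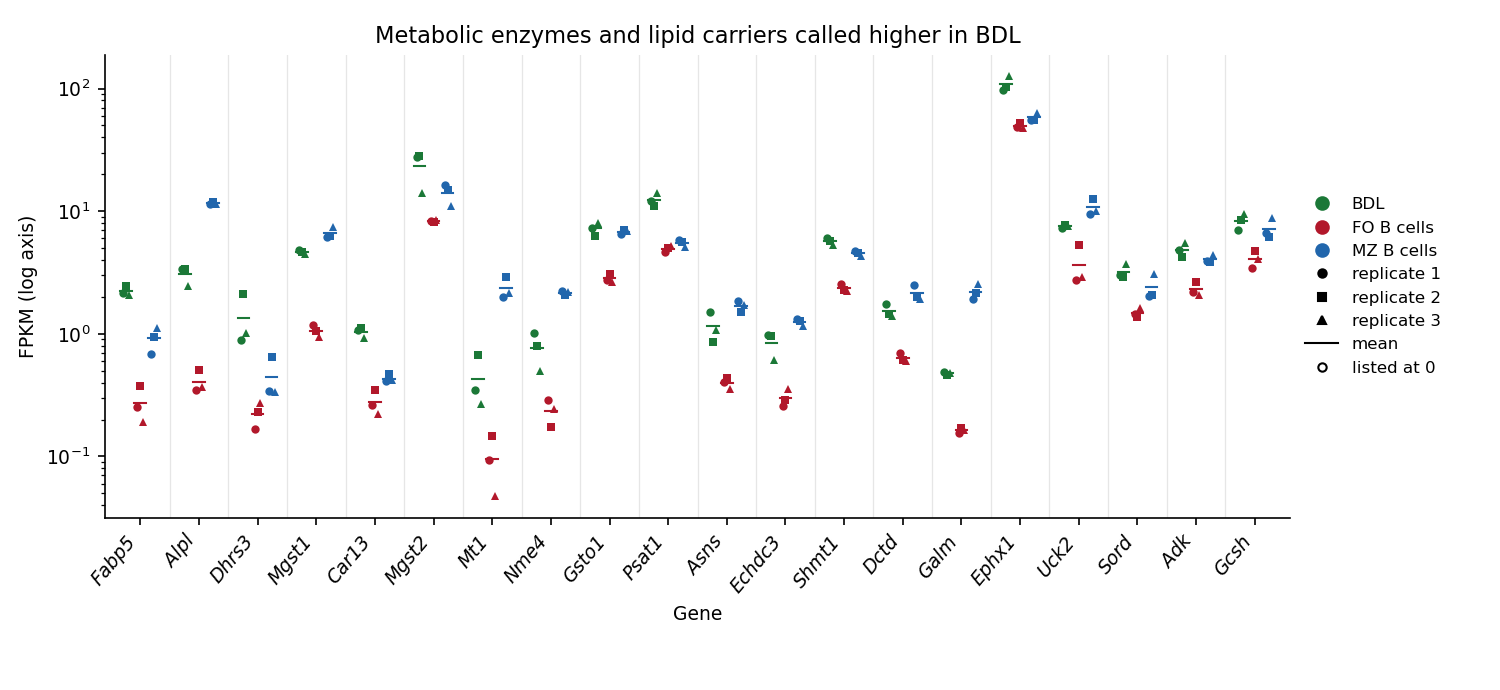
FPKM on a log axis of the 20 metabolic enzymes and lipid carriers called higher in BDL, with 1 point per library, shapes for replicates and bars for means. Ephx1 lies highest, at 98 to 126 FPKM in BDL against 47.9 to 52.6 FPKM in FO B cells, and for 9 of the 20 genes the MZ mean is above the BDL mean.

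Of 49 tested genes of nucleotide salvage and synthesis, 4 were higher, against 1.64% of all rows, and the median of the list was 0.37. Adk (adenosine kinase) was 4.81, 4.21 and 5.49 FPKM in BDL and 2.19, 2.67 and 2.06 FPKM in FO B cells (log2 difference 1.04 ± 0.13, adjusted p = 0.0036). Uck2 (uridine-cytidine kinase) was 7.32, 7.76 and 7.59 FPKM in BDL and 2.77, 5.32 and 2.93 FPKM in FO B cells (log2 difference 1.08 ± 0.23, adjusted p = 0.0283). Dctd, deoxycytidylate deaminase, and Nme4, a mitochondrial nucleoside diphosphate kinase, differed by 1.15 and 1.34 (adjusted p = 0.00389 and 0.0183). Uck2 had FO replicate 2 apart from the other FO libraries. It exceeded the threshold without any BDL replicate, FO replicate 1 or 3 or MZ replicate 1 (adjusted p 0.0505 to 0.116). Nme4 did so without BDL replicate 2 or FO replicate 2 or 3 (0.0544 to 0.0624). Outside these pathways, Fabp5, a fatty acid-binding protein, was 2.16, 2.46 and 2.09 FPKM in BDL and 0.254, 0.376 and 0.192 FPKM in FO B cells (log2 difference 2.67 ± 0.23, adjusted p = 6.80e-04). Alpl, the tissue-nonspecific alkaline phosphatase, was 3.37, 3.35 and 2.47 FPKM in BDL and 0.349, 0.504 and 0.371 FPKM in FO B cells (log2 difference 2.64 ± 0.15, adjusted p = 1.30e-04). This list, too, was written after the values were seen. Many nucleotide genes also serve DNA replication, and the 119 tested cell cycle genes, left out of this account, had a median of 0.46 and 23 higher.

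Large pathways of basal metabolism had medians above that of all rows and no calls. Of 80 tested genes of oxidative phosphorylation, 77 had a difference above 0 with a median of 0.31, and 0 were called. The adjusted p alone was passed upward by 6, beside 6.04% of all rows. The medians were 0.26 for 75 cytosolic ribosomal proteins, 0.30 for 47 proteasome genes and 0.31 for 30 genes of glycolysis and the pentose phosphate pathway, again with 0 called at 2-fold. The medians of the ribosomal proteins in the pairs of 28 July, 29 July and 5 August were 0.21, 0.09 and 0.48, and those of oxidative phosphorylation 0.28, 0.19 and 0.43, so that the pair holding BDL replicate 3 was highest in each. Atp5e, Rplp1, Psme1 and Gapdh, the genes of highest level in these lists, had differences of 0.27, 0.28, 0.39 and 0.41 (adjusted p = 0.262, 0.341, 0.097 and 0.112). In glycolysis, 9 of the 30 genes passed the adjusted p upward and 1 downward, beside 6.04% and 1.68% of all rows. Among the 9 were the hexokinase Hk2 (0.87, adjusted p = 0.00316) and lactate dehydrogenase Ldha (0.53, adjusted p = 0.0385), and the 1 was Pfkfb4 (-0.59, adjusted p = 0.0228). These 3 were chosen after their values were seen. With upper quartile scaling the medians of oxidative phosphorylation, ribosomal proteins, proteasome and glycolysis were 0.24, 0.19, 0.23 and 0.24. The ribosomal median was 0.13 with quantile normalization and 0.15 without BDL replicate 3.

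**Figure D4:**
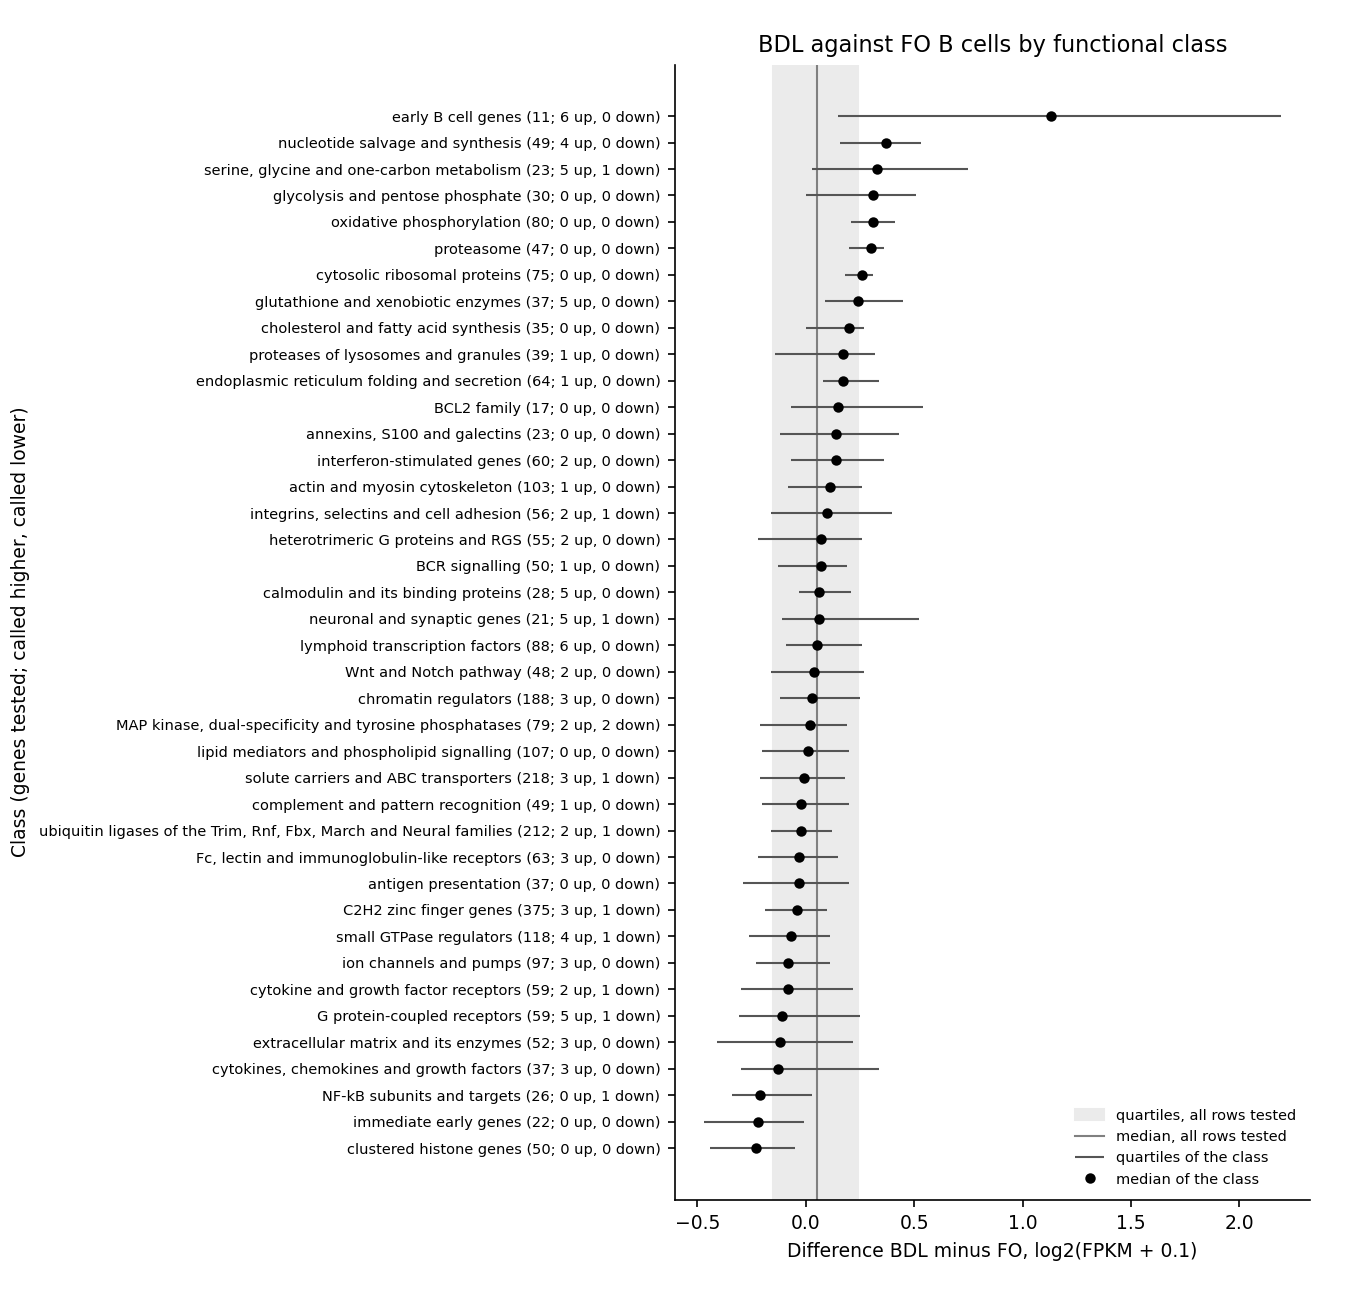
Median (point) and quartiles (line) of the difference between BDL and FO B cells in log2(FPKM + 0.1) over the tested genes of each functional class, with the number tested and called beside each name and the quartiles of all rows tested shaded. Early B cell genes, with 11 tested of 22 listed, stand highest at 1.13. The class lists were written with earlier results of these data known. Clustered histone genes (-0.23), immediate early genes (-0.22) and NF-kB subunits and targets (-0.21) lie lowest.

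Some classes leaned lower without calls or with 1. Of 22 tested immediate early genes, which antigen and stress induce within minutes, 6 had a difference above 0, the median was -0.22 and 0 were called. Junb, of highest level among them, was 439, 437 and 656 FPKM in BDL and 618, 696 and 789 FPKM in FO B cells (adjusted p = 0.258). Egr2 was the one that passed the adjusted p, with a difference of 0.72 in the other direction (adjusted p = 0.00721). Among 26 subunits and targets of NF-kB, 7 had a difference above 0 and the median was -0.21, but -0.10 without BDL replicate 3 and -0.13 without FO replicate 2. Traf1, an adaptor of TNF receptors, was the only one called (3.85%, against 0.267% of all rows called lower). It was 6.57, 5.93 and 3.51 FPKM in BDL and 12.7, 10.5 and 11 FPKM in FO B cells (log2 difference -1.12 ± 0.21, adjusted p = 0.0179). The call did not hold without FO replicate 1 or 3 (adjusted p 0.072 to 0.0812). Of 37 tested genes of antigen presentation 0 were called and the median was -0.03. Cd74, the invariant chain, was 7075, 7338 and 9090 FPKM in BDL and 8816, 8952 and 9280 FPKM in FO B cells (adjusted p = 0.502). The class II genes H2-Aa and H2-Ab1 had differences of -0.44 and -0.43 (adjusted p = 0.16 and 0.056). In the BCL2 family 0 of 17 tested genes were called, and Mcl1, of highest level, was 184, 168 and 251 FPKM in BDL and 129, 118 and 146 FPKM in FO B cells (adjusted p = 0.157).

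Proteins of the cytoskeleton and of vesicles gave 14 higher genes and 3 lower. Actn1, an actin crosslinker, was 2.92, 2.81 and 2.21 FPKM in BDL and 0.339, 0.448 and 0.269 FPKM in FO B cells (log2 difference 2.61 ± 0.24, adjusted p = 7.84e-04). Cplx2 (complexin 2), which acts on SNARE complexes in exocytosis, was 2.57, 3.07 and 3.67 FPKM in BDL and 0.63, 0.658 and 0.592 FPKM in FO B cells (log2 difference 2.13 ± 0.19, adjusted p = 7.58e-04). Stom (stomatin) and Myof (myoferlin), proteins of membrane organisation and repair, differed by 2.02 and 1.29 (adjusted p = 0.00123 and 9.44e-04) and were highest in MZ B cells, at means of 9.35 and 64.6 FPKM. Both were chosen after their values were seen. A list of 81 neuronal and synaptic genes, 21 of them tested, had 5 higher, namely Cplx2, Sv2a, Camk2a, Tubb2b and Stmn1, and 1 lower, Shank1, against 1.64% and 0.267% of all rows. The median of that list was 0.06, and its members Sv2a and Camk2a passed the minimum only through MZ B cells. Stmn1, a microtubule regulator, was also counted among the cell cycle genes. Sv2a, a synaptic vesicle protein, lost its call without BDL replicate 1 or FO replicate 1 or 2 (adjusted p 0.0507 to 0.0659).

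Transporters and channels with higher levels were the potassium channel Kcnk13 (1.71), the phospholipid exporter Abcb4 (1.67), the solute carrier Slc43a3 (1.51) and the amino acid transporter Slc43a1. Also higher were the endolysosomal channel Mcoln3 (1.23) and the calcium channel subunit Cacnb4 (1.15). The adjusted p ran from 3.77e-04 for Abcb4 to 0.00674 for Cacnb4, which was not under the threshold after quantile normalization (adjusted p = 0.0597). Of 60 tested interferon-stimulated genes, Gbp2 and Rsad2 were higher (3.33%, against 1.64% of all rows). Gbp2, a guanylate-binding protein, was 11.2, 10.4 and 16.1 FPKM in BDL and 4.79, 4.96 and 4.78 FPKM in FO B cells (log2 difference 1.33 ± 0.18, adjusted p = 0.00436). Rsad2 (viperin) was 2.06, 1.99 and 2.05 FPKM in BDL and 0.775, 0.939 and 0.65 FPKM in FO B cells (log2 difference 1.28 ± 0.15, adjusted p = 0.00264). The list had a median of 0.14. Mpeg1 (perforin-2), a pore former of phagocytes, was 11, 13.8 and 10.5 FPKM in BDL and 3.34, 4.99 and 3.51 FPKM in FO B cells (log2 difference 1.56 ± 0.16, adjusted p = 0.00148), with an MZ mean of 45.8 FPKM. On the list of endoplasmic reticulum folding and secretion, Derl3, of endoplasmic reticulum degradation, was the only one called of 64 tested (1.56%, against 1.64% of all rows). Derl3 was 4.09, 4.48 and 2.48 FPKM in BDL and 1.06, 1.22 and 1.17 FPKM in FO B cells (log2 difference 1.55 ± 0.26, adjusted p = 0.0107). It exceeded the threshold without BDL replicate 1 or FO replicate 1 or 3 (adjusted p 0.0503 to 0.0526). The ubiquitin hydrolase Uchl1 was 1.27, 1.04 and 1.46 FPKM in BDL and 0.0504, 0.14 and 0.271 FPKM in FO B cells (log2 difference 2.50 ± 0.37, adjusted p = 0.00696).

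The genes lower in BDL were fewer and closer to the threshold. Galnt6 and Chst10, enzymes that glycosylate proteins in the Golgi, were among the lower genes that kept an adjusted p under 0.05 in all alternatives. Galnt6, which starts mucin-type O-glycans, was 4.62, 4.88 and 3.76 FPKM in BDL and 10.9, 11.1 and 11.6 FPKM in FO B cells (log2 difference -1.33 ± 0.10, adjusted p = 3.26e-04). Chst10, the sulphotransferase of the HNK-1 glycan, was 4.67, 5.75 and 5.29 FPKM in BDL and 11.4, 15.1 and 11 FPKM in FO B cells (log2 difference -1.23 ± 0.17, adjusted p = 0.00542). Their MZ means, 10.8 and 11.7 FPKM, were near the FO level. L1cam, an adhesion molecule of the immunoglobulin superfamily, was 1.61, 1.59 and 1.66 FPKM in BDL and 3.98, 3.36 and 3.91 FPKM in FO B cells (log2 difference -1.16 ± 0.12, adjusted p = 0.00147). Mapk12 (p38 gamma) was 2, 1.57 and 1.17 FPKM in BDL and 4.89, 4.16 and 4.78 FPKM in FO B cells (log2 difference -1.52 ± 0.22, adjusted p = 0.00615). For these 2 genes the MZ means were lower still, at 0.392 and 0.408 FPKM. Chst10 fell outside the naming rule and was chosen after its values were seen.

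Socs3, a feedback inhibitor of cytokine receptors, was 6.37, 9.4 and 7.28 FPKM in BDL and 14.2, 23.3 and 18.8 FPKM in FO B cells (log2 difference -1.27 ± 0.25, adjusted p = 0.022). Rrad, a Ras-like GTPase, was 5.1, 8 and 4.37 FPKM in BDL and 11.6, 17.4 and 13.1 FPKM in FO B cells (log2 difference -1.28 ± 0.26, adjusted p = 0.0244). FO replicate 2 was the highest library for both genes, and in neither did the groups overlap. Shank1, a scaffold of synapses, was 2.77, 2.77 and 1.42 FPKM in BDL and 6.76, 6.19 and 7.03 FPKM in FO B cells (log2 difference -1.54 ± 0.29, adjusted p = 0.0178), and Apol8, an apolipoprotein L, was 1.39, 2.17 and 0.924 FPKM in BDL and 3.46, 4.78 and 4.13 FPKM in FO B cells (log2 difference -1.47 ± 0.30, adjusted p = 0.0247). In both, BDL replicate 3 had the lowest value, as it did in 18 of the 31 lower genes. The adjusted p exceeded 0.05 for Socs3 without BDL replicate 1 or 3 or FO replicate 2 or 3 (0.0551 to 0.0874), for Rrad without BDL replicate 1 or 3 or any FO replicate (0.0593 to 0.0876), for Shank1 without any FO replicate (0.0531 to 0.0789), and for Apol8 without BDL replicate 1 or any FO replicate (0.0677 to 0.093). Left out, BDL replicate 3 gave 27 lower and 194 higher calls, FO replicate 1 gave 17 lower calls and FO replicate 3 gave 15. Of the 31 lower genes, 12 kept an adjusted p under 0.05 in every alternative in which they were tested, and of the 190 higher genes 142 did.

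Dmwd and Dmpk, which are neighbours on chromosome 7 of NCBIM37 (19661598 to 19668125 and 19669198 to 19679170, both on the plus strand), had the steepest falls among genes other than small RNAs. Dmpk, a protein kinase, was 1.16, 1.08 and 0.315 FPKM in BDL and 4.49, 3.58 and 3.36 FPKM in FO B cells (log2 difference -2.19 ± 0.46, adjusted p = 0.0271). Dmwd, a WD repeat protein, was 2.53, 2.23 and 1.65 FPKM in BDL and 7.81, 7.09 and 5.96 FPKM in FO B cells (log2 difference -1.67 ± 0.20, adjusted p = 0.00298). Both were lowest in MZ B cells, with means of 0.176 FPKM for Dmwd and 0.063 FPKM for Dmpk. The labels and the paper differ on whether the libraries kept strand, but the genes lie on the same strand. Dmpk was not under the threshold without any one FO replicate (adjusted p 0.0795 to 0.109), nor with 0.01 added (adjusted p = 0.158).

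**Figure D5:**
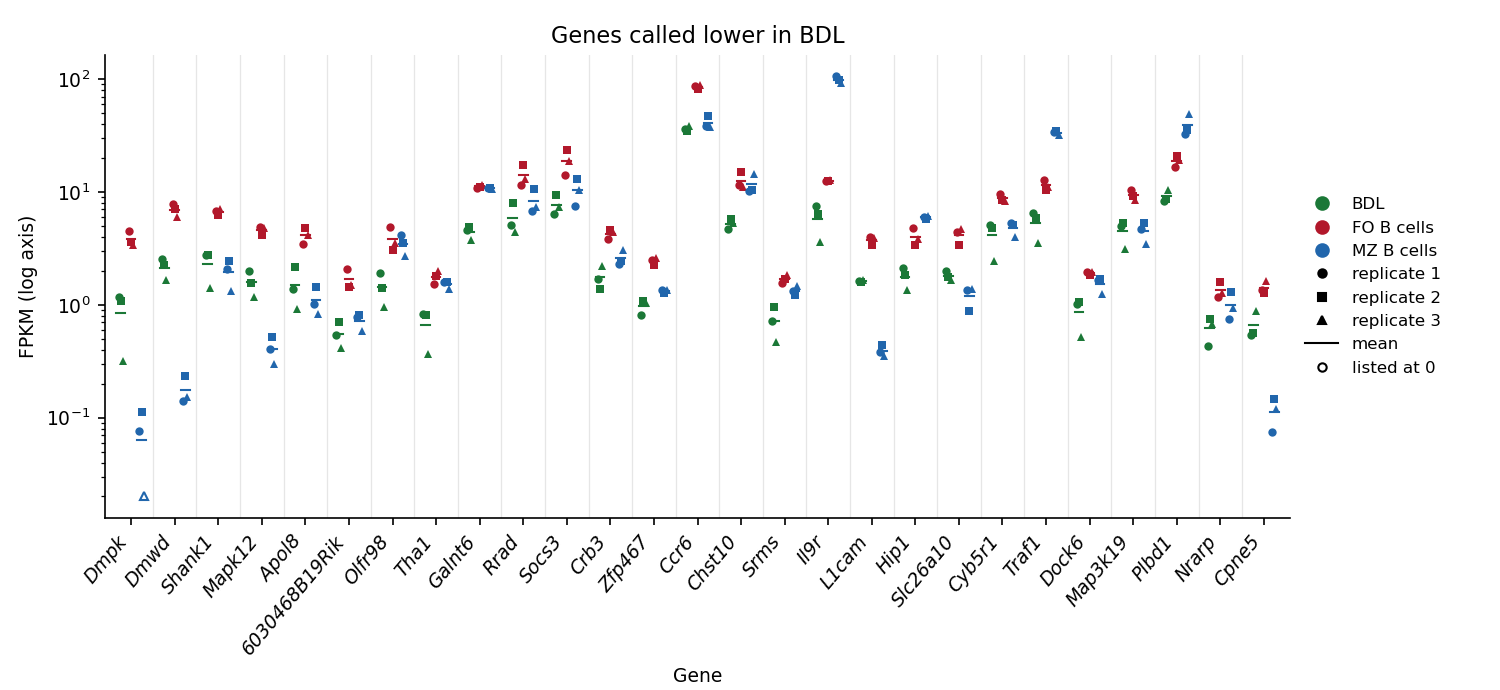
FPKM on a log axis of the 27 genes called lower in BDL other than microRNA and small nucleolar RNA rows, ordered from the largest fall, with 1 point per library, shapes for replicates, bars for means and an open symbol at the bottom for a value listed at 0. Ccr6 lies at 34.9 to 38.2 FPKM in BDL and 81.1 to 88.6 FPKM in FO B cells, and Dmpk, Dmwd and L1cam are lowest in MZ B cells.

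Set beside MZ B cells, the higher genes did not share 1 pattern. Of the 153, the MZ mean was above the BDL mean for 72, between the FO and BDL means for 48 and below the FO mean for 33. Il10, Lipc, Plxnd1 and Fcrl5 belonged to the first kind, Psat1, Myb and Gsto1 to the second, and Rgs13, Lef1, Sox4, Wnt10a, Rgl1 and Csrp2 to the third. Csrp2, a LIM-domain protein chosen after its values were seen, was 10.5, 9.6 and 11.7 FPKM in BDL and 5.09, 5.15 and 3.89 FPKM in FO B cells, with an MZ mean of 0.795 FPKM. By class, 12 of 18 receptors and 9 of 17 secreted proteins had the higher mean in MZ B cells, but 4 of 16 transcription factors did, and 10 of 20 signalling genes lay below FO B cells. Of the 31 lower genes the MZ mean was below the BDL mean for 8 and above the FO mean for 4.

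Markers of other B cell subsets were read for their whole lists, beside the 1.64% of all rows called higher. A summed level of 12 MZ markers was 937 to 1024 FPKM in BDL and 615 to 710 FPKM in FO B cells, with Plac8, Cd9, Ackr3 and Asb2 higher of 12 tested, but in MZ B cells the sum was 2462 to 3013 FPKM. Plac8, the most abundant of these, was 567, 505 and 555 FPKM in BDL and 234, 271 and 193 FPKM in FO B cells (log2 difference 1.23 ± 0.15, adjusted p = 0.00322). It made most of the gap between the BDL and FO sums. Cr2 and Dtx1 of the same list had differences of -0.40 and -0.04 (adjusted p = 0.0747 and 0.875). The other members not called had differences of 0.11 (Tm6sf1) to 0.85 (S1pr3). The 13 B1 cell markers, all tested, summed to 203 to 229 FPKM in BDL and 176 to 183 FPKM in FO B cells. Of these, 6 were higher, namely Cd9, Plscr1, Bhlhe41, Spn, Cd5 and Zbtb32. Vim, which made most of the B1 sum, and Zcwpw1 had differences of -0.01 and -0.23 (adjusted p = 0.987 and 0.313). The other B1 members not called had differences of 0.15 (Cd300lf) to 1.46 (Ctla4). The plasma cell list summed to 451 to 506 FPKM in BDL and 436 to 490 FPKM in FO B cells, with Derl3 and Sdc1 higher of 11 tested. Irf4, Xbp1 and Fkbp11 of that list had differences of -0.42, -0.19 and -0.33 (adjusted p = 0.269, 0.342 and 0.17). Its other tested members not called had differences of 0.17 (Sec11c) to 0.76 (Prdm1). The memory list summed to 102 to 156 FPKM in BDL and 82.1 to 108 FPKM in FO B cells, with Fcrl5, Zbtb32 and Cd80 higher of 8 tested. On the memory list Pdcd1lg2 went the other way, with a difference of -0.62 (adjusted p = 0.00542). Zeb2 and Itgam had differences of 0.85 and 0.89 (adjusted p = 0.00445 and 0.0208), and all 3 were under the 2-fold minimum. Most of the memory sum came from Hhex and Tlr9, with differences of 0.10 and 0.32 (adjusted p = 0.872 and 0.465). Of the markers called, Asb2 was not under the threshold without BDL replicate 1 or FO replicate 1 or 3 (adjusted p 0.0512 to 0.0588), Plscr1 without BDL replicate 1 or 2 or FO replicate 1 or 3 (0.0835 to 0.12), and Cd80 without BDL replicate 1 or 2 or FO replicate 2 or 3 (0.0518 to 0.0639). Whether a fraction of cells of these kinds within the BDL gate had a part in the differences was not tested.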

How the data were processed

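RNA of sorted splenic B cells was sequenced on an Illumina platform, with 3 libraries each of BDL, FO and MZ B cells. The authors aligned reads with TopHat2 (2.1.0 in the submitters' processing notes) to mm9 and deposited FPKM per gene symbol from Cufflinks and Cuffdiff; read counts were not analysed here. The labels call the libraries single end and not strand specific, whereas the paper names a stranded kit. No column belonged to other samples, 0 in all. The depth per library follows from the smallest steps between values and is an estimate, so intervals from counting are not given.

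Of 24459 rows, the 11597 averaging 0.5 FPKM or more in the 9 libraries entered the test. Differences were tested on log2(FPKM + 0.1) with limma 3.58.1 in R 4.3.3 (trend in eBayes, subset as the only term, all 9 libraries), with Benjamini-Hochberg adjustment over 11597 rows. The series describes 3 separate sorts of each subset from pooled mice, and p-values measure the spread between them. The thresholds were 0.05 for the adjusted p and 2 for the fold. Of the tested symbols, 10455 (90.2%) had a gene in GENCODE M1 on NCBIM37, which gave the positions.

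Each date in the titles is shared by 1 library of each subset, and replicates were paired by it; what was done on that date is not given in the sources used here. Deviations of BDL and FO libraries from their group means correlated at 0.147, -0.062 and 0.049 for the same dates. Of 271 symbols on several rows, 94 differed between rows only in FO replicate 1, and 0 of the called rows were among them.

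The members and lists were chosen with earlier results of these data known, and 4 lists and the classes of called genes were written after the values were seen. Genes named were the 15 higher and 10 lower with the largest fold change, up to 5 called in each direction per class, the markers of lists that moved and, for a class without calls, the gene of highest level. Named outside that rule, after their values were seen, were the genes of the 4 added lists, Egr2, Etv5, Ebf1, Gpr183, H2-Aa, H2-Ab1, Hivep3, Lta, Mif, Mpeg1, Pax5, Ptpn22, Rasgrp3, Rgs1, Rgs2, Sirpa, Smyd2, Tnf, Zfpm1, Cecr2, Hk2, Ldha, Pfkfb4, Hcrtr2, Stom, Myof, Chst10, Csrp2, Cd2, Pecam1 and Bst2. Alternatives were another added constant, minimum, scaling, trend or set of libraries, a replicate block, repeated symbols summed and each library left out. Repeated symbols left out was chosen after seeing the data. Tables were read with pandas 2.3.3 and figures drawn with matplotlib 3.10.9. A few genes withheld from the text are not reported here.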

Additional observations from a re-analysis of the deposited data

How the results depend on the processing

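Of the 221 calls, 0 reversed under the 20 alternatives, 76 kept the full call in each and 145 did not, and 154 kept an adjusted p under 0.05 wherever they were tested. With 1 FPKM added, 78 were higher and 16 lower, and without the 2-fold minimum 701 and 195. The 6 libraries of BDL and FO alone gave 17 lower. The replicate block, which pairs the libraries by the date in their titles, gave 198 higher and 49 lower. The 221 were all called with it too, and 26 more were called only with it. Leaving out 1 library gave 149 to 194 higher and 15 to 31 lower. The remaining alternatives gave 150 to 266 higher and 28 to 42 lower. The cause of these shifts was not tested, other than that an added 1 FPKM shrinks the fold of low genes, and fewer libraries leave less to estimate the spread. The medians of lymphoid factors, calmodulin binders, Wnt and Notch genes and neuronal genes were within 0.06 of 0 and reached 0 or below under quantile or upper quartile scaling, which moved the median of all rows from 0.05 to -0.00 and -0.02. Of 880 class medians, 91 moved. Where 1 fragment on 1 kb was worth 0.0137 to 0.0185 FPKM, genes with an FO mean under 0.5 FPKM rest on few fragments.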

Other observations

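Rows of small RNAs, read by a method for long transcripts, held 1 higher and 4 lower calls of 439 tested (0.228% and 0.911%, against 1.64% and 0.267% of all rows). Mir7032 was listed at 0 in all BDL and all MZ libraries and at 27.8, 57.7 and 27.9 FPKM in FO B cells. Mir7035 was listed at 0 in BDL and at 68.2, 70.9 and 22.9 FPKM in FO B cells, and Snord45c, a small nucleolar RNA, at 0 and at 426, 883 and 395 FPKM. In MZ B cells Mir7035 was 24.6, 0 and 0 FPKM and Snord45c 106, 7.2e-08 and 387 FPKM, so that these rows varied from about 0 upward within 1 subset. Mir1896 was 180, 138 and 199 FPKM in BDL and 339, 655 and 293 FPKM in FO B cells (adjusted p = 0.0478). Mir1b went the other way, with 3.94, 3.52 and 3.04 FPKM in BDL, 0 in every FO library and 0, 3.45 and 0 FPKM in MZ B cells. Mir1896 was not under the threshold without any one of the 9 libraries (adjusted p 0.0555 to 0.121), nor Mir7035 (0.0658 to 0.108), Snord45c (0.0638 to 0.0956) and Mir1b (0.0831 to 0.13) without any one of the 6 BDL and FO libraries, whereas Mir7032 kept an adjusted p under 0.05 in all alternatives in which it was tested. The mature sequences of the lower microRNAs in RefSeq are shown to identify the rows, 5′ to 3′ with the seed (bases 2 to 8) in capitals and positions in GRCm38.p6.
miR-7032-5p (chr5:123996857-123996882, plus strand): cCCAGGGUgguccccgagaggguggu
miR-7032-3p (chr5:123996908-123996929, plus strand): aUCCUCUCgguaccgcccugca
miR-7035-5p (chr5:136105527-136105547, plus strand): gGCUGGGAgaguggcucagaa
miR-7035-3p (chr5:136105583-136105603, plus strand): uCUGAGCCgcugucccugcag
miR-1896 (chr13:21445209-21445230, plus strand): cUCUCUGAuggugggugaggag

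The haemoglobin genes Hbb-bt and Hbb-b1, near-identical copies between which reads may be split, were higher in BDL. Hbb-bt was 9.63, 9.66 and 11.8 FPKM in BDL and 1.88, 1.92 and 1.72 FPKM in FO B cells (log2 difference 2.43 ± 0.17, adjusted p = 3.18e-04), and Hbb-b1 was 6.42, 5.13 and 6.05 FPKM in BDL and 2.02, 1.25 and 1.19 FPKM in FO B cells (log2 difference 1.94 ± 0.27, adjusted p = 0.00542). The list of 13 erythroid markers summed to 16.8 to 19.2 FPKM in BDL and 4.06 to 6.31 FPKM in FO B cells, most of it from these 2 genes. Hba-a1, an alpha globin, was 1.44, 1.57 and 1.08 FPKM in BDL and 1.85, 0.415 and 0.942 FPKM in FO B cells (adjusted p = 0.502). Klf1 was 0.0632, 0.0453 and 0.0391 FPKM in BDL and 0.131, 0.174 and 0.156 FPKM in FO B cells, and Alas2 and Epor reached at most 0.305 FPKM in the 6 libraries. Slc4a1 and Car1 were at 0 there. Platelet markers summed to 4.66 to 6.15 FPKM in BDL and 6.9 to 7.65 FPKM in FO B cells, dendritic cell markers to 26.2 to 28 and 23 to 25.7 FPKM, NK cell markers to 3.81 to 7.45 and 3.01 to 8.58 FPKM, T cell markers to 158 to 215 and 145 to 181 FPKM, and stromal markers to 65.1 to 72.3 and 63.9 to 75.3 FPKM, with 0 called in each. Most of the T cell, stromal and dendritic cell sums came from a single gene each, namely Cd2, Pecam1 and Bst2. Their differences were 0.20, -0.01 and 0.20 (adjusted p = 0.42, 0.969 and 0.131), so these sums are not levels of the whole lists.

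Of 201 called genes with 1 annotated position, 4 pairs lay within 50000 bases of each other on NCBIM37. Besides Dmwd and Dmpk, 1072 bases apart, Endou and Rapgef3 on chromosome 15 were both higher, with 13547 bases between them. The pairs Birc5 with Tha1 and Birc5 with 6030468B19Rik, on chromosome 11, had 1 gene higher and 1 lower each.

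Classes with few or no calls also included 50 clustered histone genes, with 9 above 0, a median of -0.23 and medians of -0.34, -0.38 and 0.00 in the pairs of 28 July, 29 July and 5 August. The 35 tested genes of cholesterol and fatty acid synthesis had a median of 0.20 with 0 called, the 23 annexins, S100 proteins and galectins 0.14 with 0 called, and the 107 genes of lipid mediators and phospholipid signalling 0.01 with 0 called. Without the 2-fold minimum, 23 of 188 chromatin regulators passed the adjusted p upward and 1 downward, beside 6.04% of all rows upward.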
